A study of Mus musculus with 30 samples.

Results

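The constitutive proteasome subunits described here are 31 genes of the mouse macrophage-like cell line J774A.1, out of 54146 genes in the count table. They are the genes whose symbols run through the series Psma, Psmb, Psmc and Psmd followed by a number, without the catalytic subunits and their IFNG-inducible counterparts (Psmb5 to Psmb10), and with a level over all 30 libraries that averaged 1 CPM or more (CPM is the count of read pairs over the exons of a gene, scaled by library size). The symbol pattern alone gave 33 genes, and Psma8 and Psmb11, which are described in testis and thymus, fell below the minimum with mean levels of 0 and 0.0023 CPM. Polyadenylated RNA was sequenced from 5 clones that were each expanded from a single J774A.1 cell. WT1, WT2 and WT3 carried no edit and had not been electroporated, and KO1 and KO2 carried a homozygous CRISPR deletion of B2_Mm2.Dicer1, a transposable element copy in the first intron of Dicer1 on chromosome 12. Every clone was left untreated (UT) or given mouse IFNG at 100 ng/mL for 4 h, with 3 libraries for each of the 10 combinations. Each genotype therefore rests on 3 and 2 clones of 1 cell line, and editing and electroporation cannot be told apart.

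The proteasome degrades proteins that carry ubiquitin. Its core particle is a barrel of alpha rings, which control entry, and beta rings, of which only some subunits cut peptide bonds. A regulatory particle caps the barrel: its base holds a ring of ATPases that unfold substrates together with scaffold and ubiquitin receptor subunits, and its lid removes ubiquitin. Dedicated chaperones assemble the base and are not found in the finished particle. In macrophages IFNG is best known for inducing alternative catalytic subunits and the Psme1 and Psme2 activator, which alter the peptides offered to T cells, whereas most subunits of the particle are shared by both forms. By role, the 31 genes comprised 7 alpha and 4 non-catalytic beta subunits of the core, 6 ATPases and 3 other subunits of the base, 8 lid subunits and 3 base chaperones.

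Library totals ran from 15566122 to 37992642 counts, with a median of 23682133.5. All 8 macrophage markers examined had a median of at least 94.0 CPM, although Adgre1 ranged from 9.27 to 294 CPM between libraries. Of 12 markers of other cell types, 9 stayed under 1 CPM in every library, 3 of them at 0 throughout, and the summed level of the list was 2.03 to 5.94 CPM in untreated and 2.29 to 5.56 CPM in IFNG-treated libraries. The treatment was plain in the data: Irf1, an IFNG-induced transcription factor, had a log2 fold change (log2FC) of 5.11 with a standard error (SE) of 0.0333.

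The subunit genes were strongly expressed, over a 43.8-fold range of levels per kb of exon. Their median level was 52.7 CPM per kb of exon, compared with 7.43 CPM per kb over the 12345 genes that averaged 1 CPM or more. On this per-length scale the highest member was Psma6, an alpha subunit, with 141 CPM per kb, followed by the lid subunit Psmd8 with 137 and the beta subunit Psmb4 with 117. The lowest finished-particle gene was the ATPase Psmc2, with 20.7 CPM per kb. The 3 base chaperones lay at the bottom of the order: Psmd10 with 19.8 CPM per kb, Psmd5 with 8.45 and Psmd9 with 3.22. By these means over 30 libraries, all 28 genes of the finished particle were above all 3 of the chaperone genes. The libraries of Psmc2 and Psmd10 overlapped, at 17.3 to 23.7 and 15.6 to 27.2 CPM per kb.

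Medians by role were 73.8 CPM per kb for alpha subunits, 67.5 for beta subunits, 69.4 for base ATPases, 52.1 for the other base subunits, 45.8 for lid subunits and 8.45 for base chaperones. The levels within a role were spread widely. Alpha subunits spanned 34.3 to 141 CPM per kb, a 4.11-fold range, and lid subunits spanned 26.1 to 137, a 5.24-fold range. The median core level divided by the median level of the 17 lid and base subunits was 1.38 ± 0.147 (SD, n = 30 libraries). Without division by exon length this ratio was 1.09 ± 0.0823, where the median exon length was 2370 bases for the core and 2820 bases for lid and base. The exon length of a gene is that of all its annotated transcripts merged, which understates the level of genes with long minor transcripts.

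**Figure D1:**
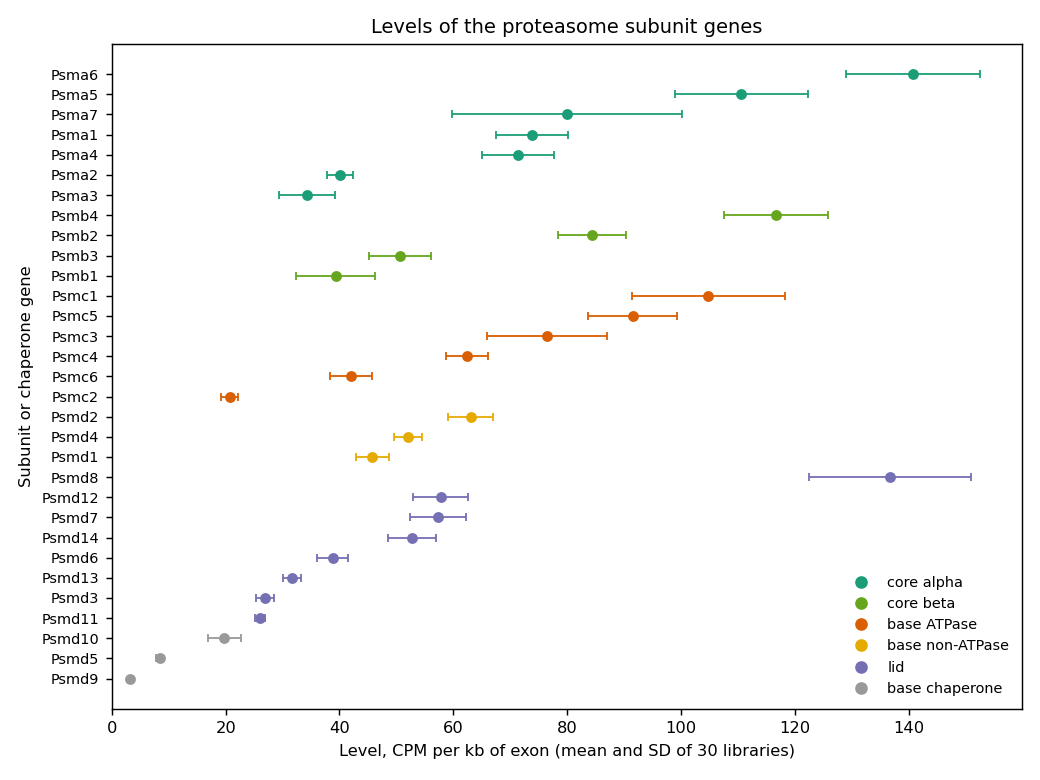
Levels of the 31 genes in CPM per kb of exon (x axis), grouped by role (colours); points are means and bars are SD over 30 libraries. Psma6, Psmd8 and Psmb4 are highest, and the base chaperones Psmd10, Psmd5 and Psmd9 are lowest.

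The question for the treatment was whether genes shared by the standard and the IFNG-induced form of the particle respond. They did so weakly. Over all clones, in a model with a term for each clone, edgeR's quasi-likelihood test called 16 of the 31 members (FDR-adjusted p-value under 0.05), 14 of them upward and 2 downward. Of all 14525 genes tested 53.2% were called, 24.9% upward and 28.3% downward, compared with 51.6%, 45.2% and 6.45% of the members. The total share of members called was thus close to that of all genes, and the calls lay mostly on the upward side. All 31 members passed the filter on low counts in each comparison. Without the clone term 9 members were called. The median absolute log2FC of the members was 0.051, compared with 0.12 for all genes tested. A change of less than 0.1 on the log2 scale was measured for 23 of the 31 members (74.2%) and for 43.4% of all genes tested, and no member reached 0.3.

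By role, 5 of 7 alpha subunits and 6 of 8 lid subunits rose, with median log2FC of 0.13 and 0.061. Of the lid calls, those of Psmd14, Psmd11 and Psmd12 were lost without a count filter and without clone WT3, and those of the same genes and Psmd8 without the clone term. None of the 4 beta subunits passed, and their log2FC lay between 0.011 and 0.031. Among the 6 base ATPases Psmc6 rose and Psmc1 fell, among the other base subunits the ubiquitin receptor Psmd4 rose, and of the chaperones Psmd10 rose and Psmd5 fell. Counted by particle, 5 of 11 core genes passed, all upward, and 9 of 17 lid and base genes, 8 upward and 1 downward. These are 45.5% and 52.9%, against 53.2% of all genes tested. The calls of Psmd4 and Psmc1 were also lost without a count filter, without clone WT3 and without the clone term. No core call was lost without a count filter, and that of Psma7 was lost without the clone term. The median log2FC was 0.040 for core genes and 0.044 for lid and base genes. The median over all genes tested was -0.0081. These are counts and medians of a chosen list, and no difference between core, lid and base was tested.

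**Figure D2:**
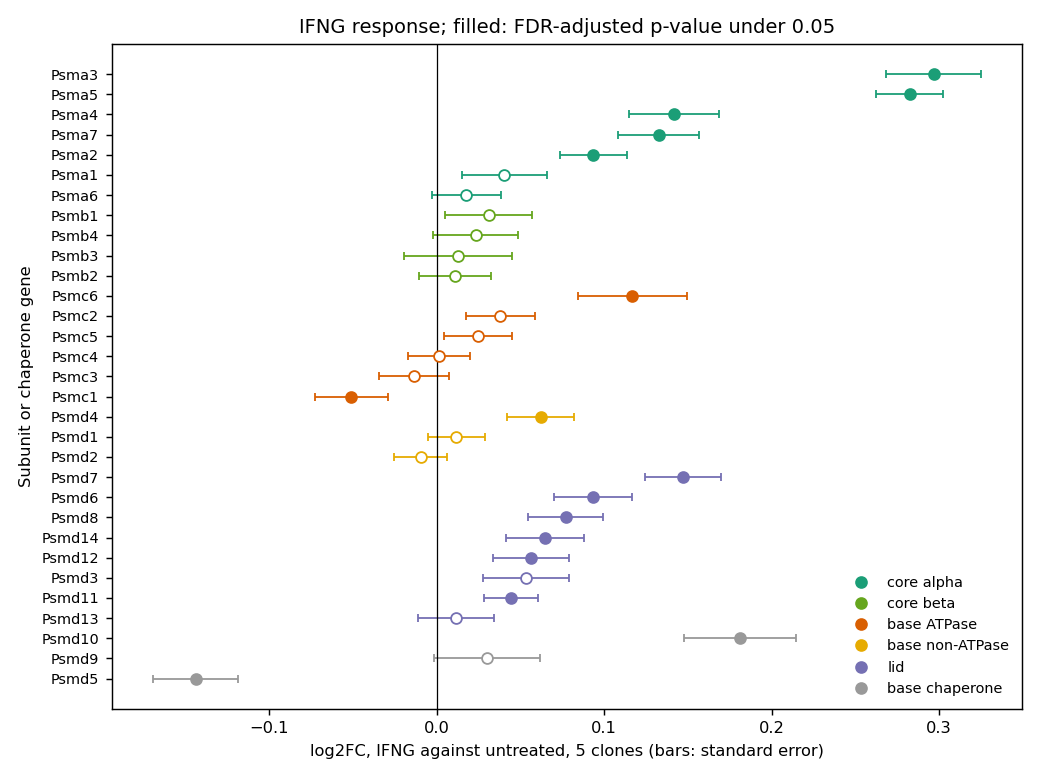
log2FC of each gene, IFNG against untreated over 5 clones (x axis), grouped by role (colours); bars are standard errors and filled points have an FDR-adjusted p-value under 0.05. Psma3 and Psma5 stand at 0.30 and 0.28, and every beta subunit is within 0.031 of 0.

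Psma3 and Psma5, both alpha subunits, had the largest responses. Psma3 (ENSMUSG00000060073.9, chr12:70974621-70996347 in mm10, plus strand) ran from 100.1 to 137 CPM with a median of 119.6 over the 15 untreated libraries, and from 124 to 172 CPM with a median of 146 over the 15 treated ones. The ranges overlapped over all clones, but within each of the 5 clones every treated library was above every untreated one. The share of all genes that separate within every clone is not given here. Psma3 rose by 22.8%, a log2FC of 0.30 (SE 0.0283, FDR-adjusted p-value = 3.42e-11). Psma5 (ENSMUSG00000068749.9, chr3:108256926-108279974, plus strand) ran from 123 to 141 CPM with a median of 132 untreated and from 149.8 to 172 CPM with a median of 161 after IFNG. It was the 1 member whose treated libraries were all above all untreated libraries, a separation in either direction that 7.04% of all genes tested showed. The rise was 21.6%, a log2FC of 0.28 (SE 0.0198, FDR-adjusted p-value = 1.28e-14).

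Psmd10, the base chaperone also called gankyrin (ENSMUSG00000031429.14, chrX:140948429-140956728, minus strand), had the next largest response but a low level. Its untreated libraries ran from 22.97 to 36.8 CPM with a median of 26.8, and its treated libraries from 26.7 to 40.0 CPM with a median of 28.9. The log2FC was 0.18 (SE 0.0336, adjusted p-value = 2.01e-05), and the mean was higher after IFNG in all 5 clones. The remaining members that rose had log2FC between 0.044 and 0.15. They were the alpha subunits Psma4 (0.14), Psma7 (0.13) and Psma2 (0.094), the ATPase Psmc6 (0.12), the ubiquitin receptor Psmd4 (0.062) and 6 lid subunits. Among the latter, Psmd7, the partner of the deubiquitinase, reached 0.15 (SE 0.0225, adjusted p-value = 8.40e-07), and Psmd14, the deubiquitinase itself, had 0.065. Psmd6 (0.093), Psmd8 (0.077), Psmd12 (0.057) and Psmd11 (0.044) are structural lid subunits.

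Psmd5, a chaperone of the base (ENSMUSG00000026869.12, chr2:34849734-34874968, minus strand), fell. Untreated libraries ran from 58.8 to 72.7 CPM with a median of 63.2, and treated libraries from 53.1 to 61.9 CPM with a median of 57.9. The sets overlapped, and the mean was lower after IFNG in all 5 clones. The log2FC was -0.14 (SE 0.0254, adjusted p-value = 9.51e-06). Psmc1, an ATPase, passed narrowly at -0.051 (SE 0.0219, adjusted p-value = 0.04996), and its call was lost in 16 of 30 fits that each left out 1 library, as was that of Psmd12 in 13. It ran from 155 to 251 CPM with a median of 211 untreated and from 154 to 234 CPM with a median of 203 after IFNG. The next lowest member, the ATPase Psmc3, ran from 141 to 231 CPM (median 210) untreated and from 132 to 223 CPM (median 208) after IFNG, and did not pass (log2FC -0.013, adjusted p-value = 0.62).

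**Figure D3:**
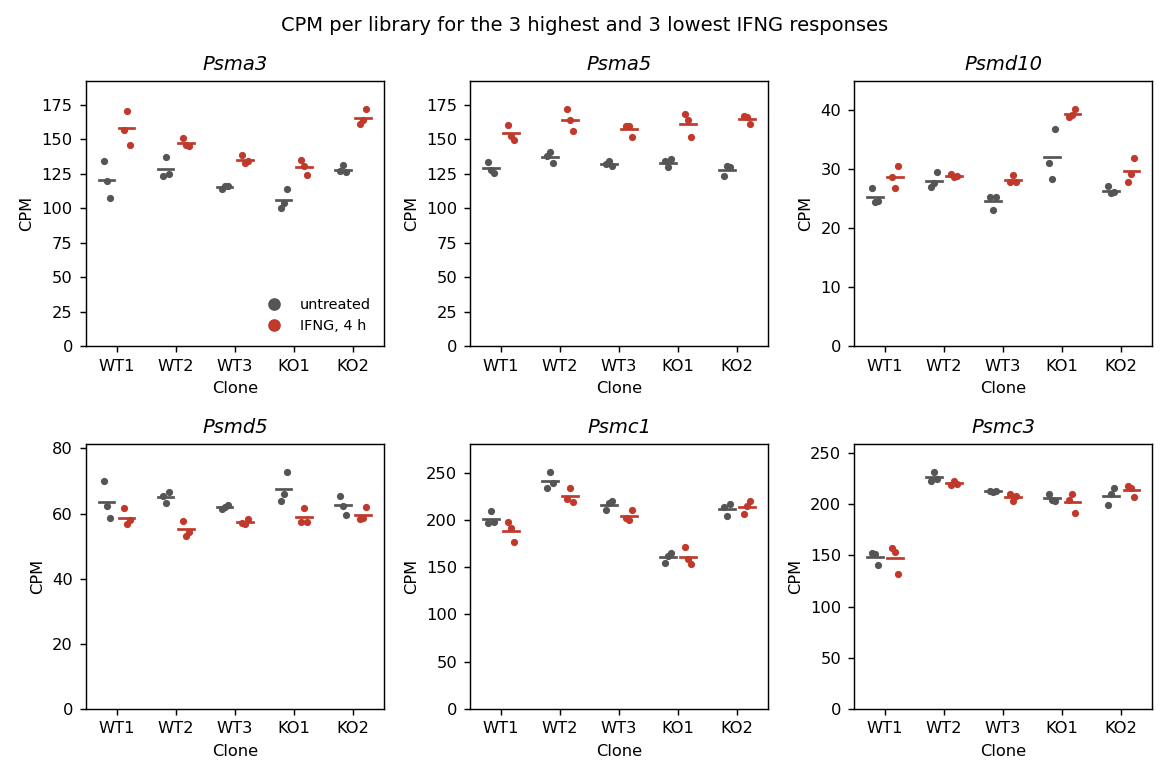
CPM of each library (y axis, from 0) for the 3 highest and the 3 lowest IFNG responses, by clone (x axis) and treatment (colours); short lines are means of 3 libraries. In every clone the treated libraries of Psma3 and Psma5 lie above the untreated ones, and Psmc1 is lowest in KO1 under both treatments.

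The other members did not pass over all clones. They were the alpha subunits Psma1 (log2FC 0.040) and Psma6 (0.018), the beta subunits Psmb1 (0.031), Psmb4 (0.023), Psmb3 (0.013) and Psmb2 (0.011), and the ATPases Psmc2 (0.038), Psmc5 (0.025) and Psmc4 (0.0014). The base scaffolds Psmd1 (0.012) and Psmd2 (-0.0096), the lid subunits Psmd3 (0.053) and Psmd13 (0.012) and the chaperone Psmd9 (0.030) complete the list. Their standard errors ran from 0.0158 for Psmd2 to 0.0323 for Psmb3, so that a change of the size seen for Psma3 lay many standard errors away from each of them.

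Within single clones, where 3 libraries faced 3, the calls were fewer. In WT1, 2 members were called, both upward, against 21.2% of all genes tested (11.8% upward). In WT2, 7 were called against 34.5% of all genes, 6 upward (17.4%) and 1 downward (2227 of 13090 genes tested). In WT3, 7 were called, all upward, against 36.1% (18.6% upward). In KO1, 5 were called against 29.4%, 4 upward (16.2%) and 1 downward (13.2%). In KO2, 10 were called, all upward, against 27.1% (13.9% upward). Psma3 and Psma5 passed in all 5 clones, and the share of all genes that did so is not given here. The log2FC ran from 0.21 in WT2 to 0.38 in WT1 for Psma3. For Psma5 it ran from 0.25 in WT1 to 0.37 in KO2. Psmd7 passed in 4 clones, in each of which it rose, and no other member passed in more than 2. The beta subunits passed in none.

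Whether the response differed with genotype was asked with an interaction term. No member passed, while 1.02% of the 14682 genes tested did. At an unadjusted p under 0.05 there were 2 members: Psmc1 (difference in log2FC 0.10, SE 0.0411, adjusted p-value = 0.38) and Psma6 (0.082, SE 0.0401, adjusted p-value = 0.54). The KO response of Psma3 minus its WT response was 0.058 (SE 0.0591), and DESeq2 called 0 members as well. A test of any difference among the 5 clones, added after the data had been seen, called 0 members at an adjusted p under 0.05 and 0 at an unadjusted p under 0.05, against 3.68% of genes after adjustment.

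The genes of the pathway outside the 31 are given for scale. Of 36 listed, 33 were tested. After IFNG 14 of them were called, 10 upward and 4 downward. Of all genes tested 53.2% were called, 24.9% upward and 28.3% downward. The IFNG-inducible catalytic subunits rose, Psmb9 with a log2FC of 1.43, Psmb10 with 1.02 and Psmb8 with 0.62, whereas the standard catalytic subunits that they replace, Psmb6 (0.010), Psmb7 (0.051) and Psmb5 (-0.058), did not pass. The activator subunits Psme2 (0.58) and Psme1 (0.45) rose, as did the activator Psme4 (0.15) and the inhibitor Psmf1 (0.082), and Psme3 (0.038) did not pass. Pomp, the chaperone that matures the core, rose with 0.42, while its fellow core assembly factors Psmg1 (-0.070), Psmg2 (-0.043), Psmg3 (-0.00036) and Psmg4 (0.038) did not pass. Uchl5, a deubiquitinase of the base, rose (0.079), and the other base and lid components Adrm1 (-0.035) and Sem1 (0.0024) and the bound factors Usp14 (-0.018), Ube3c (-0.042), Txnl1 (0.027) and Ecpas (0.039) did not pass. Of the substrate shuttles, Ddi2, a protease that also activates Nfe2l1, rose (0.41), Ubqln2 (-0.21) and Ubqln4 (-0.18) fell, and Rad23b (0.021) and Ubqln1 (0.021) did not pass. Nfe2l1, the transcription factor that raises proteasome genes when the proteasome is inhibited, fell slightly (-0.096), and so did its relative Nfe2l2 (-0.27). Ngly1 (0.067) and Vcp (-0.014), which act on Nfe2l1, did not pass. Not every listed gene is named. This list was not independent of earlier results on the same data.

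The log2FC over all clones was above 0 for 27 of the 31 members, and their upstream sequences were examined for shared letters. RefSeq promoter windows (GRCm38.p6, the assembly also named mm10) were matched for 26 members by symbol (28 windows, since some genes have more than 1 start), and Psmb1, Psmb2, Psmc3, Psmd3 and Psmd7 were not matched. The 250 bases before each start were searched on both strands for 6 short motifs. Each start is a RefSeq start, which can lie inside the GENCODE span of the gene. A member was counted if any of its windows had a match, whereas the shares for all and for expressed genes are per window. The sequences before the 2 genes with the largest response are given first, 5′ to 3′ on the gene's strand, with matches to the motifs in capitals.

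Psma3, chr12:70974373-70974622, plus strand, a CCAAT box in capitals: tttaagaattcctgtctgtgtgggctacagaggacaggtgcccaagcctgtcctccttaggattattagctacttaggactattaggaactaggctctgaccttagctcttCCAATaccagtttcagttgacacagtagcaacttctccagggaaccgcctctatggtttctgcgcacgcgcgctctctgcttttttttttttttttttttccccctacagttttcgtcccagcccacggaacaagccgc
Psma5, chr3:108256676-108256925, plus strand, an ETS site in capitals: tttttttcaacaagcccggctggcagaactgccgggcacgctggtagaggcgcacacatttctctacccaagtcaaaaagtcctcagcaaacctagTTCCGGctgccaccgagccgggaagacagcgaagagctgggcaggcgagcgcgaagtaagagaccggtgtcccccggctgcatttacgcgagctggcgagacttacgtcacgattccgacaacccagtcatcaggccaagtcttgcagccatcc

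The GAS site TTCNNNGAA, a gamma interferon activation site, was found in 0 of the 26 members with a window, and in 7.01% of all 32817 windows. The interferon-stimulated response element, here GAAA followed after any 2 bases by another GAAA, was found in 3 members (Psmb3, Psmd4 and Psmd9), or 11.5%, against 2.97% of all windows. Of these 3, Psmd4 rose after IFNG and the others did not pass.

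The ETS site CCGGAA was found in 13 members, which is 50.0%, against 12.02% of all windows and 23.3% of the 11099 windows of expressed genes (an average of 1 CPM or more). Of these 13 members, 2 belonged to the core (Psma5 and Psma6) and the other 11 to the lid and base or their chaperones. These counts are not shares: the core has 11 of the 31 members, and its Psmb1 and Psmb2 had no window. Psmc3, Psmd3 and Psmd7 of the lid and base had none either. Of the sites, 6 are printed with up to 10 bases on either side, since they show how the same letters lie at different distances from the RefSeq start. Those of Psmc1, Psmd12 and Psmd10 lie inside the GENCODE span of the gene.
Psmc1, chr12:100110165-100110190, 27 to 22 bases before the start: gtggatgcacTTCCGGcggtggcgat
Psmd12, chr11:107479502-107479527, 16 to 11 bases before the start: agcgggcgacTTCCGGtgcgagtgac
Psmd6, chr14:14120975-14121000, minus strand, 45 to 40 bases before the start: agagacgcgaCCGGAAgtcagactgg
Psmc6, chr14:45329714-45329739, 100 to 95 bases before the start: ggcgggccagCCGGAAggggcggagc
Psmd2, chr16:20651560-20651585, 82 to 77 bases before the start: gggctggaagCCGGAAcagtaattcc
Psmd10, chrX:140956712-140956737, minus strand, 16 to 11 bases before the start: tgattggtcgCCGGAAcaggaaatgc

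The antioxidant response element core TGACNNNGC, the kind of site that Nfe2l1 and Nfe2l2 bind, was found in 3 members (Psmc6, Psmd9 and Psmd12), or 11.5%, against 10.2% of all windows. Their sites are given in the same way, since these transcription factors are the best known regulators of the family. The site of Psmd9 lies inside the GENCODE span of the gene.
Psmc6, chr14:45329587-45329615, plus strand: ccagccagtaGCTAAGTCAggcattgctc
Psmd9, chr5:123228149-123228177, plus strand: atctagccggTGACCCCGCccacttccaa
Psmd12, chr11:107479278-107479299, plus strand: tctGCTGTGTCAcatttgcccc

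The GC box GGGCGG was found in 16 members (61.5%, against 32.7% of all windows and 58.0% of those of expressed genes), and the CCAAT box CCAAT in 11 (42.3%, against 33.8% and 35.7%). These matches describe letters in a window and show no binding, and a motif without a match may lie elsewhere.

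Between clones the members varied less than most genes did. The SD of the mean log2 level over the 5 untreated clones had a median of 0.093 for the members, 0.15 for these 12345 expressed genes, and 0.13 for the 6439 genes whose mean CPM lay within the range of the members. Psmd11, a lid subunit, had the smallest value of the members (0.031) and Psma7 the largest (0.41).

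Psma7, the member that varied most, split the clones in a way that did not follow genotype. Its untreated mean was 299 ± 27.8 CPM in WT1, 279 ± 14.6 in KO1 and 255 ± 12.6 in KO2, but 181 ± 4.42 in WT2 and 157 ± 3.26 in WT3 (SD, n = 3 libraries each). Psmb1, a beta subunit on chromosome 17, showed the same division, with 197 ± 21.3, 213 ± 4.52 and 191 ± 11.5 CPM in WT1, KO1 and KO2 and 149.6 ± 2.62 and 142 ± 4.46 CPM in WT2 and WT3. For both genes the untreated libraries of WT2 and WT3 were all below those of the other 3 clones. How many of all genes split in this way is not given here. Psmc3 had 148 ± 6.59 CPM in untreated WT1 and 206 to 226 CPM in the other clone means. These genes were singled out after their values had been seen, and the split of WT2 and WT3 from the other clones was not tested.

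**Figure D4:**
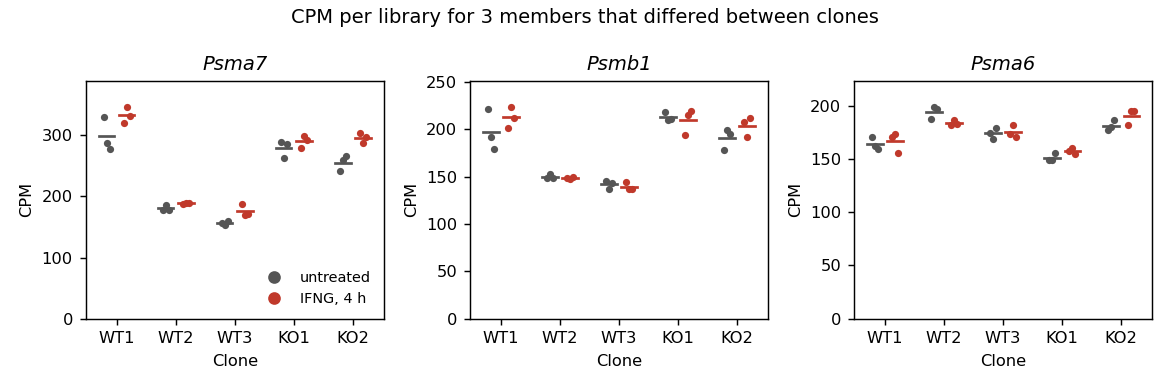
CPM of each library (y axis, from 0) for Psma7, Psmb1 and Psma6 by clone (x axis) and treatment (colours); short lines are means of 3 libraries. Psma7 and Psmb1 are lower in WT2 and WT3 than in WT1, KO1 and KO2, and Psma6 is lowest in KO1.

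The mean core to lid-and-base ratio was 1.52 in untreated WT1, 1.45 in KO1 and 1.47 in KO2. It was 1.22 in WT2 and 1.21 in WT3. This is the same division, but Psma7 and Psmb1 are among the core genes of the ratio. The ratio is therefore not independent of their split, and its value without them is not given here. IFNG moved the ratio little, from 1.37 ± 0.142 over the 15 untreated libraries to 1.38 ± 0.157 over the 15 treated ones.

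KO and WT cells were compared to ask whether the deletion goes with other subunit levels. In untreated cells 3 members were called, 2 higher and 1 lower in KO. Of all 13886 genes tested 26.6% were called, 12.2% higher and 14.4% lower. The median absolute log2FC was 0.058 for the members and 0.15 for all genes tested. The 3 were Psmb1 (log2FC 0.30, SE 0.0965, adjusted p-value = 0.029), the base scaffold Psmd2 (0.12, SE 0.0377, adjusted p-value = 0.032) and Psmc1 (-0.24, SE 0.0833, adjusted p-value = 0.042). They are named because they were the only ones called, since for none of them did both KO clone means lie outside the range of the 3 WT clone means. With the counts summed per clone, so that 2 KO clones faced 3 WT clones, 0 members passed. Psma7 had a larger log2FC (0.33) but a standard error of 0.166, and did not pass (adjusted p-value = 0.16).

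After IFNG, 5 members were called, all higher in KO, against 23.9% of the 13637 genes tested (10.9% higher). They were Psmd10 (log2FC 0.27), Psmd12 (0.20), Psma1 (0.18), Psmd2 (0.14) and Psmd6 (0.13), all with both KO clone means above the 3 WT clone means. Psmd5, Psmd7, Psma2 and Psmc6 had such means without a call, and the share of all genes with such means is not given here. Of 15 fits that each left out 1 library, the call of Psmd6 was lost in 11 and that of Psma1 in 9. Psmd2 and Psmd10 each lost theirs in 3 and Psmd12 in 0. Again 0 members passed on counts summed per clone, and 0 without KO1. For Psmd10, the largest, the treated libraries ran from 26.7 to 30.5 CPM (median 28.6) in WT and from 27.8 to 40.0 CPM (median 35.3) in KO, with 39.3 ± 0.648 CPM in KO1 and 29.6 ± 2.08 CPM in KO2. The KO2 libraries overlapped the WT range and the KO1 libraries did not.

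The KO clones also differed when taken singly. In untreated KO1, 7 members were called against the WT clones, 4 higher and 3 lower, and 25.7% of the 14239 genes tested were called, 11.1% higher and 14.6% lower. These comparisons share the WT libraries. In untreated KO2, 0 members passed (0 at an unadjusted p under 0.05, 0 by DESeq2), against 11.6% of 14441 genes. Those higher in KO1 were Psmb1 (0.37), Psmd10 (0.30), Psmd12 (0.20) and Psmd2 (0.19), of which Psmb1 lost its call in 9 of 12 fits that each left out 1 library. The 3 lower members were Psmc1, Psma6 and Psma3, which are the 3 members on chromosome 12.

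Their levels were as follows. Psmc1 (ENSMUSG00000021178.9, chr12:100110154-100123405, plus strand) measured 155, 162 and 165 CPM in untreated KO1, and 197 to 251 CPM with a median of 218 over the 9 untreated WT libraries. Psma6 (ENSMUSG00000021024.14, chr12:55384222-55418454, plus strand) measured 149, 149 and 155 CPM in untreated KO1, and 159 to 199 CPM with a median of 174 in WT. For both genes no KO1 library reached the WT range. The share of all genes with such a gap is not given here. Psma3 measured 100.1, 104 and 114 CPM in untreated KO1 against 107 to 137 CPM in WT, so that these ranges overlapped.

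Against WT the log2FC in untreated KO1 was -0.46 for Psmc1 (SE 0.0713, adjusted p-value = 0.00047), -0.24 for Psma6 (0.0666, adjusted p-value = 0.0167) and -0.21 for Psma3 (0.0703, adjusted p-value = 0.0449). The call of Psma3 was lost in 9 of 12 fits that each left out 1 library and without a count filter, that of Psma6 in 2 of 12 such fits and that of Psmc1 in 0. In KO2 the corresponding values were -0.051, 0.033 and 0.078, and none passed. In the direct comparison of KO1 with KO2, added after the data had been seen, 14 members were called in untreated cells (23.2% of all genes tested), 11 higher (11.1%) and 3 lower (12.1%), and 4 after IFNG (14.9%), 1 higher (6.53%) and 3 lower (8.36%). The 3 chromosome 12 members were the lower ones under both conditions. In untreated cells they were -0.41, -0.27 and -0.28 (adjusted p-values 4.80e-06, 0.00015 and 0.00057), and after IFNG -0.41, -0.28 and -0.35 (0.00014, 0.00154 and 0.00033). Chromosome 12 as a whole was lower in KO1, with a median log2FC against WT of -0.37 over 505 tested genes, 84.6% of them below 0, whereas the median in KO2 was 0.00064 over 512 genes. When libraries were normalized on chromosome 12 genes alone, the log2FC in KO1 became -0.094 for Psmc1 (adjusted p-value = 0.21), 0.12 for Psma6 (0.079) and 0.16 for Psma3 (0.048). The deleted element is also on chromosome 12, and the part of the chromosome-wide difference in these 3 values was not tested further. Psmb1 lies on chromosome 17, whose median log2FC was 0.18 in KO1 and 0.19 in KO2. Its own log2FC was 0.37 in KO1 and 0.23 in KO2, where it did not pass (adjusted p-value = 0.32).

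**Figure D5:**
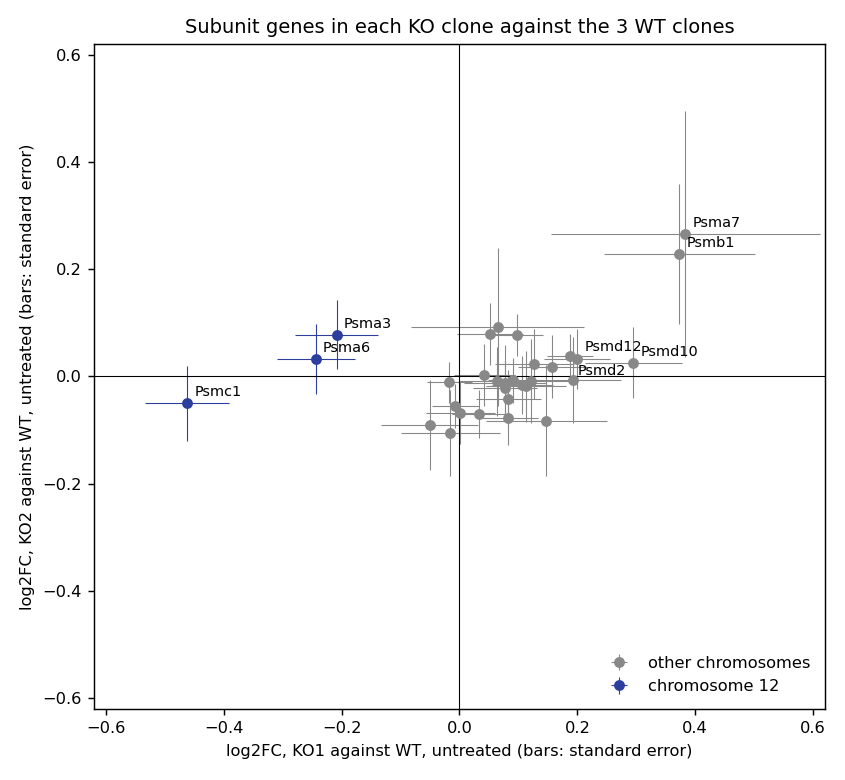
log2FC of each of the 31 genes in untreated KO1 against WT (x axis) and in untreated KO2 against WT (y axis), with standard error bars; both axes share the WT libraries. The 3 chromosome 12 genes (blue) are between -0.46 and -0.21 in KO1 and near 0 in KO2, and Psma7 and Psmb1 are at the upper right.

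The IFNG response of the chromosome 12 subunits was measured within each clone and so does not depend on these level differences. In KO1, Psma3 still rose with a log2FC of 0.32 (SE 0.0556, adjusted p-value = 5.00e-04), to 124, 130 and 135 CPM, where untreated libraries of the other clones ran from 107 to 137 CPM. Psma6 (0.088) and Psmc1 (0.034) did not pass there. In KO2, where none of the 3 differed from WT beyond the threshold, Psma3 rose with 0.37, and Psma6 (0.072) and Psmc1 (0.012) did not pass.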

How the data were processed

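Polyadenylated RNA of 30 J774A.1 libraries was sequenced as read pairs. Per the labels, the study's methods and the file header, the authors aligned reads with HISAT2 (2.1.0) to mm10 and counted uniquely aligned pairs over exons with featureCounts (1.6.2), by strand, with pairs overlapping several genes counted for each (an option given in the file header). The deposited values used here are raw counts per GENCODE gene, with technical runs merged, and 13 further deposited tables, which hold subsets of the same libraries, were not used. Columns named wtc1 and wtc3 were taken as WT2 and WT3 because the tables of these clones hold them. Pairs that also match a processed copy of a gene elsewhere were not counted. Psmd1 shares 4.14% of its exon bases with another gene on the same strand.

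Counts were tested with edgeR (4.0.16, R 4.3.3; filterByExpr, TMM factors, quasi-likelihood F test, Benjamini-Hochberg adjustment over all genes tested, threshold 0.05). The models were clone plus treatment for all 30 libraries, treatment within each clone, a treatment by genotype term, and KO against WT within a treatment. Levels are CPM on TMM factors from 14870 genes, divided by exon length where stated. The fits were tested on simulated data. DESeq2 (1.42.0), other factors and filters, and fits without each library or clone were run as alternatives. Depth limits the smallest changes that can pass.

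The members, roles and lists were chosen with earlier results of these data known. Members were given with library values if they had the 3 highest or 3 lowest IFNG responses, passed the interaction or lay on chromosome 12. A further rule was a call between untreated KO and WT with both KO clone means outside the WT clone means. No member met that rule. Libraries of 1 group differed from each other by more than sampling noise (chi-square per degree of freedom from 1.95 to 19.5). Nothing states that they came from separate cultures, so p-values measure the spread between libraries. The labels name 2 RNA inputs and 2 adapter kinds without assigning them, so batches could not be examined. Values of some listed pathway genes are not reported here.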

Additional observations from a re-analysis of the deposited data

Results flagged for a closer look

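No subunit gene met the criteria for a difference in IFNG response between genotypes or among clones. Of the pathway genes around them, Psmb9 and Nfe2l2 did. The response of Psmb9 was higher in KO by 0.31 on the log2 scale (edgeR adjusted p-value = 0.0153). Its mean levels were 27.3 CPM untreated and 67.4 CPM treated in WT, and 23.01 CPM and 70.4 CPM in KO. Its WT libraries ran from 20.1 to 40.4 CPM untreated and from 53.3 to 87.7 CPM treated. Its KO libraries ran from 19.8 to 25.7 CPM and from 61.8 to 81.2 CPM. The decrease of Nfe2l2 was smaller in KO by 0.22 (adjusted p-value = 0.0357), from 214 to 167 mean CPM in WT and from 215 to 196 mean CPM in KO, and its response also differed among the 5 clones (adjusted p-value = 0.00386).

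KO1 and KO2 were compared directly after the data had been seen. In untreated cells 23.2% of all genes tested were called between them, and 14 members were. The chromosome 12 members were lower in KO1, Psmc1 by a log2FC of -0.41, Psma3 by -0.28 and Psma6 by -0.27. Higher in KO1 were Psmd10 (0.27), Psmd8 (0.23), Psmb3 (0.20), Psmd12 (0.17), Psmd13 (0.16), Psmd2 (0.15), Psmb1 (0.15), Psmb4 (0.14), Psma4 (0.13), Psmc6 (0.13) and Psmb2 (0.13). After IFNG 4 members were called, against 14.9% of all genes: Psmc1 (-0.41), Psma3 (-0.35), Psma6 (-0.28) and Psmd10 (0.42). The groups of 3 libraries were too small to examine single libraries for outliers.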

How the results depend on the processing

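Over all clones, 16 members were called, and 14 to 16 when each library was left out in turn. Without the clone term the count was 9, and Psma7, Psmd8, Psmd4, Psmd14, Psmd11, Psmd12 and Psmc1 were then lost. Psma3, Psma5, Psmd10, Psmd7, Psma4, Psma2, Psmc6, Psmd6 and Psmd5 passed under every alternative, whereas Psmc1 was lost in 16 of 30 fits that left out a library and Psmd12 in 13. Within clones, fits without each library gave 2 to 4 calls in WT1, 4 to 7 in WT2, 5 to 9 in WT3, 4 to 5 in KO1 and 6 to 11 in KO2, and 1 fit over all 30 libraries gave 5 in WT1 and 3 in WT2. The interaction stayed at 0 to 0 calls.

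The KO comparisons depended on the clones. For untreated cells the 3 calls became 1 without a count filter, 10 without WT1, 1 without WT3, 0 without KO1, 7 without KO2, 0 on counts summed per clone and 10 with normalization on chromosome 12 genes (an alternative chosen after the data had been seen), and 0 to 5 without each library. After IFNG the 5 calls became 12 without WT1, 3 without WT2, 2 without WT3, 0 without KO1, 0 on summed counts and 15 on chromosome 12 genes, and 1 to 7 without each library. For KO1 against WT the 7 calls became 29 on chromosome 12 genes, which raises all other genes in KO1, and 3 to 10 without each library. On these genes the log2FC in KO1 changed sign for Psma6, which then did not pass (0.12, adjusted p-value = 0.079), and for Psma3 (0.16, adjusted p-value = 0.048). KO2 stayed at 0 to 0. The core to lid-and-base ratio of 1.38 became 1.09 without division by length.

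No paired analysis was possible because the columns of the deposited table carry no replicate numbers, and the planned fits with a replicate block were not run.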

Other observations

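Several pathway genes outside the 31 were called between KO and WT libraries. In untreated cells, 11 of the 33 tested were called by edgeR (26.6% of all genes), 8 of them higher in KO. These were the shuttle Ubqln2 (log2FC 0.60), the ubiquitin receptor Adrm1 (0.31), the lid component Sem1 (0.22), the core assembly factors Psmg4 (0.21) and Psmg2 (0.16), the catalytic subunit Psmb5 (0.19), the inhibitor Psmf1 (0.17) and the shuttle Ubqln4 (0.11). Among the lower ones were the activator subunit Psme1 (-0.13) and the transcription factor Nfe2l1 (-0.10). After IFNG, 8 of the 33 were called (23.9% of all genes), 7 of them higher in KO. Ubqln2 (0.65), Adrm1 (0.29), Psmb5 (0.17) and Psmf1 (0.10) were again called higher, as were the inducible subunit Psmb8 (0.38), Nfe2l2 (0.24) and Pomp (0.12). The treated libraries of Psmb8 ran from 115 to 189 CPM (median 122) in WT and from 166 to 197 CPM (median 184) in KO. These ranges overlapped. Only 2 KO clones stand behind these values.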
